A study of Homo sapiens with 30 samples.

Results

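The 32 genes described here encode the enzymes of cholesterol synthesis, the regulators that set their transcription, and the enzymes that build and desaturate fatty acids. They are a fixed list of named genes, chosen with earlier results of these data known. They comprise 18 cholesterol synthesis enzymes, 5 SREBP regulators or sterol carriers and 9 fatty acid genes. All 32 were listed in both count tables and passed the filter on low counts in both, among 17542 genes tested in the miR-1 overexpression series and 14490 in the MPC1 knockout series. The tables list 60675 and 58051 genes.

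Cells make cholesterol from acetyl-CoA through mevalonate, farnesyl diphosphate and squalene, and make fatty acids from the same acetyl-CoA after citrate leaves the mitochondrion. SREBP transcription factors, encoded by SREBF1 and SREBF2, drive both pathways. When sterols are scarce, the escort protein SCAP carries SREBP from the endoplasmic reticulum to the Golgi for cleavage, and when sterols are plentiful the INSIG proteins hold the complex back. Leukemia cells take up lipoprotein cholesterol from serum and also synthesise sterols and lipids for membranes.

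The lines, MV4-11, Molm-14 and THP-1, are established lines derived from human acute myeloid leukemia (AML). For the overexpression series, cells of MV4-11 and of Molm-14 carried either a GFP lentiviral vector with the host gene sequence of miR-1 (miR-1 OE) or an empty vector (EV). For the knockout series, cells of all 3 lines carried either a CRISPR construct with a single guide against MPC1 (MPC1 KO), the gene of a subunit of the mitochondrial pyruvate carrier, or an EV. Each of the 10 groups had 3 libraries, the labels name no agent beyond the vectors, and whether a line was a pool or 1 clone was not given in the sources used here. The vectors of the OE series are driven by a general promoter (EF1α). Nothing in the labels ties the libraries of a group to separate cultures, so p-values measure the spread between these libraries, which may be technical. In bulk RNA, fewer cells expressing a gene and less RNA per cell cannot be told apart.

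Promoters are shown for SREBF2, the one member whose window held the letters searched for as a sterol regulatory element, and for SCD and FADS2. They are from RefSeq (GRCh38.p14), each running from 250 bases before to 50 bases after the transcription start. Windows were found for 28 of the 32 genes, 38 windows in all because 8 genes have several, and ACAT2, FASN, FDFT1 and SQLE were not matched. The sterol regulatory element searched for, TCACNCCAC on either strand, was present in 1 of the 38 windows (2.63%), that of SREBF2, against 1.13% of all 35116 windows of that length. In the SREBF2 window, on the plus strand of chromosome 22 (chr22:41832855-41833154), it began 133 bases before the start and is in capitals below.
SREBF2: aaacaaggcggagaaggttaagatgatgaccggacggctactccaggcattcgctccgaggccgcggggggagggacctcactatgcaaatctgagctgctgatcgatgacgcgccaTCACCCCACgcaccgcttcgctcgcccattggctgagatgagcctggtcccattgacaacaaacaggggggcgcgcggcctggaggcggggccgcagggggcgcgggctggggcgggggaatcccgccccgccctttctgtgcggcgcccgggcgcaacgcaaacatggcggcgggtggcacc
The genes of SCD, the desaturase that makes oleate, and FADS2, the first desaturase of polyunsaturated fatty acids, changed differently between lines after MPC1 knockout (below), and their windows were added after that was seen. They lie on the plus strand at chr10:100346983-100347282 and chr11:61816154-61816453, and capitals mark CCAAT and GGGCGG in either orientation, which are motifs of the factors NF-Y and SP1. For FADS2 the window with more of these letters, of those listed, is shown.
SCD: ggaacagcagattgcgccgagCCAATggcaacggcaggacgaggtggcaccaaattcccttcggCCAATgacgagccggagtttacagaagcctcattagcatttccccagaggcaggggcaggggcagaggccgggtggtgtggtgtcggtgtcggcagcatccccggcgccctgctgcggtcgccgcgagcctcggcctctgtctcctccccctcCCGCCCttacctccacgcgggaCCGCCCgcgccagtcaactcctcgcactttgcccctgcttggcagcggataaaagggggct
FADS2: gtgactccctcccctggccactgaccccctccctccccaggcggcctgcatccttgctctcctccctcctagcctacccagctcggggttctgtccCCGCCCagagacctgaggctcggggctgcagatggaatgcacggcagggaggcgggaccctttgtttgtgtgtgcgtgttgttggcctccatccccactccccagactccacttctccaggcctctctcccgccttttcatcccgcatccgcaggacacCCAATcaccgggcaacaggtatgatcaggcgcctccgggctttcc
CCAAT was found in 26 of the 38 windows (68.4%) against 34.6% of all windows, and GGGCGG in 33 of 38 (86.8%) against 45% of all. The SREBP E-box CACGTG was found in 6 of 38 (15.8%), those of ELOVL5, INSIG1, LSS, SC5D and SCAP, against 7.26% of all. SCD held CCAAT 229 and 186 bases before its start, and FADS2 held it 6 bases after. These are matches of letters, given as a description, and other forms of the sterol regulatory element were not searched for.

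Total counts per library ranged from 15543301 to 20939985 in the OE series and from 5339360 to 9106478 in the KO series. Levels are CPM, counts relative to the library total after TMM scaling, and the series were normalised separately. MPC1 was lower in KO than in EV in every line, by 1.18 ± 0.0973 (SE), 1.04 ± 0.0934 and 0.84 ± 0.0908 on the log2 scale in MV4-11, Molm-14 and THP-1. The guide cuts DNA, so its messenger RNA is only a partial check of the deletion. The miR-1 host transcript MIR133A1HG had 34 to 73 counts in each OE library and 0 in every EV library. The myeloid markers PTPRC, CD33, SPI1, LYZ and FLT3 were detected in every EV library, while CD14 was at 4 counts or fewer in MV4-11 and Molm-14. Summed T cell markers stayed at or below 3.7 CPM, summed B cell markers at or below 2.26 CPM and summed fibroblast markers at or below 2.01 CPM in all groups. Erythroid markers summed to at most 20.03 CPM, in MV4-11 EV of the OE series, all from EPOR. Epithelial markers summed to at most 33.3 CPM, in Molm-14 EV of the KO series, of which KRT18 gave 32.96 CPM.

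MPC1 knockout was accompanied by higher sterol and desaturase transcripts in THP-1 cells. Called here means a Benjamini-Hochberg adjusted p under 5% over all genes in edgeR's quasi-likelihood test, which was fitted to the 18 libraries of the knockout series together. In THP-1, 4 of 32 members were called, all higher, against 0.0897% of all genes called in that comparison. They were FADS2, ACAT2, DHCR7 and SCD. The median log2 change of the 32 genes was 0.19, against 0.00338 for all genes, and 29 of 32 were higher in KO (50.7% of all genes were). In 15 members every KO library lay above every EV library, against 6.8% of all genes, and in 0 members did every KO library lie below, against 6.79%.

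**Figure D1:**
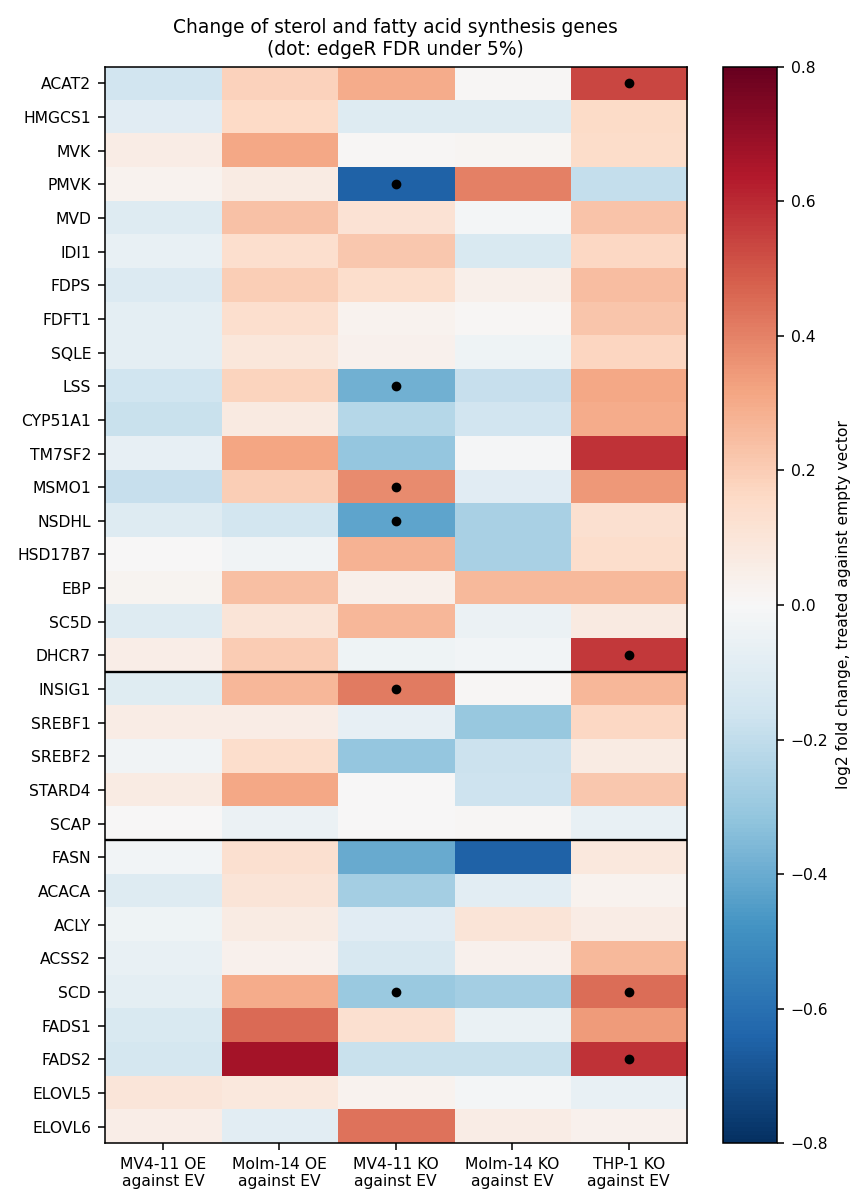
Heat map of the log2 fold change of the 32 genes (rows, in the order of the pathway, with lines between the 3 gene groups) in the 5 treated against empty-vector comparisons (columns), red for higher and blue for lower, with a black dot where the edgeR adjusted p is under 5%. The THP-1 KO column is red in 29 rows, the Molm-14 OE column in 28, and the dots are 6 in MV4-11 KO and 4 in THP-1 KO.

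FADS2 was at 55.1, 49.6 and 55.5 CPM in the 3 THP-1 EV libraries and at 75.1, 79.3 and 84.5 CPM in KO. The log2 fold change was 0.58 ± 0.10 (SE, n = 3 against 3, edgeR adjusted p = 0.00869), and the groups did not overlap. ACAT2, the cytosolic thiolase that starts mevalonate synthesis, was at 135, 140 and 109 CPM in EV and at 195, 196 and 166 CPM in KO (0.54 ± 0.10, edgeR adjusted p = 0.0329). DHCR7, the reductase of the last step to cholesterol, was at 33.1, 31.7 and 30.6 CPM in EV and at 46.7, 45.3 and 49.3 CPM in KO (0.56 ± 0.11, edgeR adjusted p = 0.0329). SCD was at 128, 137 and 161 CPM in EV and at 184, 187 and 210 CPM in KO (0.45 ± 0.09, edgeR adjusted p = 0.039). In all 4 genes the lowest KO library was above the highest EV library.

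Other THP-1 genes did not pass the threshold. FADS1, the other front-end desaturase, was at 150, 152 and 149 CPM in EV and at 192, 198 and 180 CPM in KO (0.34 ± 0.08, edgeR adjusted p = 0.136). TM7SF2, a sterol reductase, was at 10.2, 9.12 and 11.4 CPM in EV and at 15.6, 14.3 and 16.1 CPM in KO (0.58 ± 0.17, edgeR adjusted p = 0.33). The lowest change among the 32 was -0.19 ± 0.15, in PMVK (phosphomevalonate kinase), and SCAP and ELOVL5 were near 0 (-0.06 each). Across the other genes whose libraries did not overlap, MVD, FDPS, FDFT1, LSS, MSMO1, NSDHL, EBP, STARD4 and ACSS2, changes ran from 0.13 to 0.35.

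The THP-1 calls changed with the libraries fitted. The number of calls fell to 0 of 32 when only the 6 THP-1 libraries were fitted, and to 0 when THP-1 KO replicate 2 was left out, 1 without EV replicate 1, EV replicate 2 or KO replicate 1, and 2 without EV replicate 3 or KO replicate 3. Within THP-1, deviations of same-numbered EV and KO libraries correlated at 0.385, 0.301 and 0.619, and those of EV replicate 2 and KO replicate 1 at 0.39. The labels give no pairing. A fit with the replicate number as a block called 3 members against 0.11% of genes, DHCR7 missing at an edgeR adjusted p of 0.0827.

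**Figure D2:**
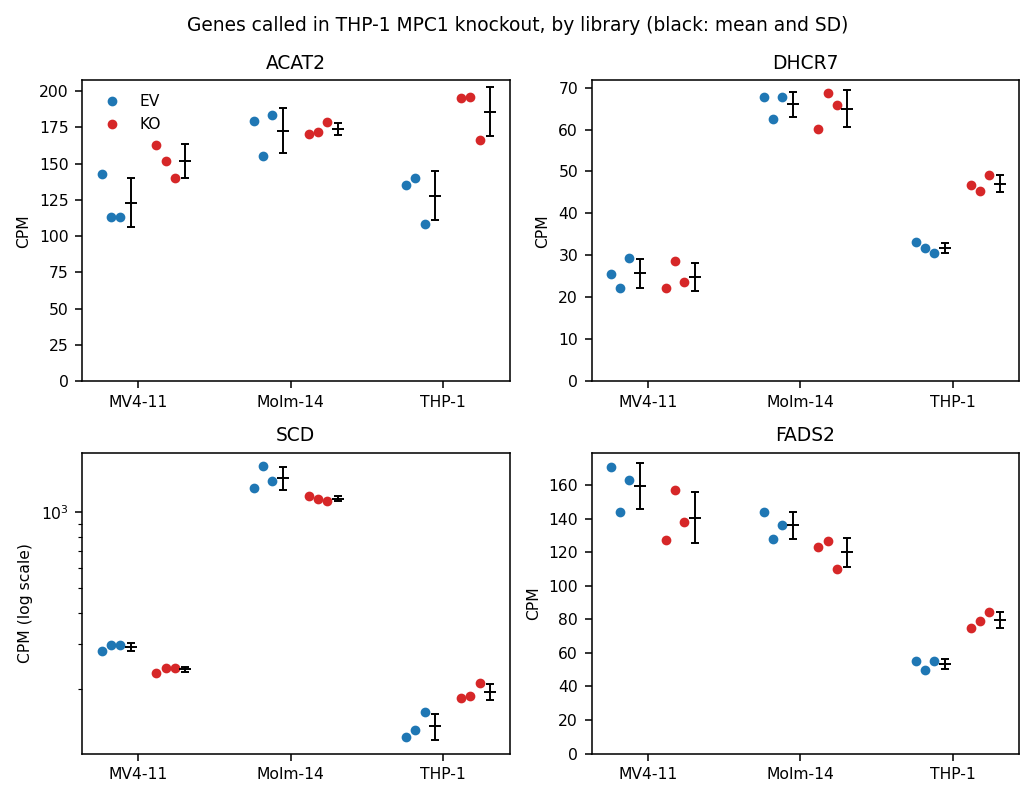
CPM of the 4 genes called in THP-1 KO, in every library of the knockout series, by cell line (x axis), with EV in blue, KO in red and the mean and SD of 3 libraries in black, and with a log axis for SCD. In THP-1 the KO libraries of each gene lie above the EV libraries, and in MV4-11 and Molm-14 the SCD libraries of KO lie below those of EV.

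In MV4-11 cells the MPC1 knockout changed single genes in both directions. Of the 32 members, 6 were called, 2 higher and 4 lower, against 5.41% of all genes. The median change was 0.003, with 0.0153 for all genes. INSIG1, which retains the SREBP complex in the endoplasmic reticulum and is itself an SREBP target, rose from 308, 259 and 259 CPM in EV to 389, 366 and 350 CPM in KO (0.42 ± 0.09, n = 3 against 3, edgeR adjusted p = 0.00992). MSMO1, which removes methyl groups from sterols, rose from 62.6, 49.8 and 49.3 CPM to 78.8, 65.0 and 67.5 CPM (0.38 ± 0.11, edgeR adjusted p = 0.0418). PMVK fell from 14.04, 14.67 and 17.58 CPM to 6.54, 11.5 and 11.1 CPM (-0.65 ± 0.17, edgeR adjusted p = 0.0243). In all 3 genes the lowest library of the higher group was above the highest of the other.

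NSDHL, another enzyme of sterol demethylation, fell from 31.3, 34.5 and 39.6 CPM to 25.2, 27.6 and 25.5 CPM (-0.42 ± 0.12, edgeR adjusted p = 0.0321). LSS, lanosterol synthase, fell from 52.0, 48.5 and 57.2 CPM to 35.0, 44.9 and 40.9 CPM (-0.38 ± 0.11, edgeR adjusted p = 0.0473). SCD fell from 281, 298 and 299 CPM to 231, 242 and 242 CPM (-0.30 ± 0.09, edgeR adjusted p = 0.042). The groups did not overlap in any of these genes. Libraries without overlap numbered 4 of 32 members higher and 8 lower, against 15% and 9.1% of all genes.

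The MV4-11 calls changed with single libraries. They numbered 0 without EV replicate 2, EV replicate 3 or KO replicate 1, and 3 without KO replicate 2, and 2 (INSIG1 and SCD) with the MV4-11 libraries alone. In the same comparison 3 of 13 genes of the mitochondrial genome were called, all lower, and their summed level ran from 2027 to 3724 CPM in EV and from 1358 to 1883 CPM in KO. Among the myeloid markers, PTPRC changed by 0.27 ± 0.08 and SPI1 by -0.46 ± 0.14, both called. Of the cell cycle genes, CDK1 changed by 0.36 ± 0.09, PCNA by 0.29 ± 0.08 and MCM6 by -0.34 ± 0.09, all called. The epithelial marker KRT18 was at 2.44, 1.75 and 2.01 CPM in EV and at 4.13, 4.64 and 3.65 CPM in KO (0.98 ± 0.26, called), with the other 3 epithelial markers at 0. The part of these in the member changes was not tested.

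**Figure D3:**
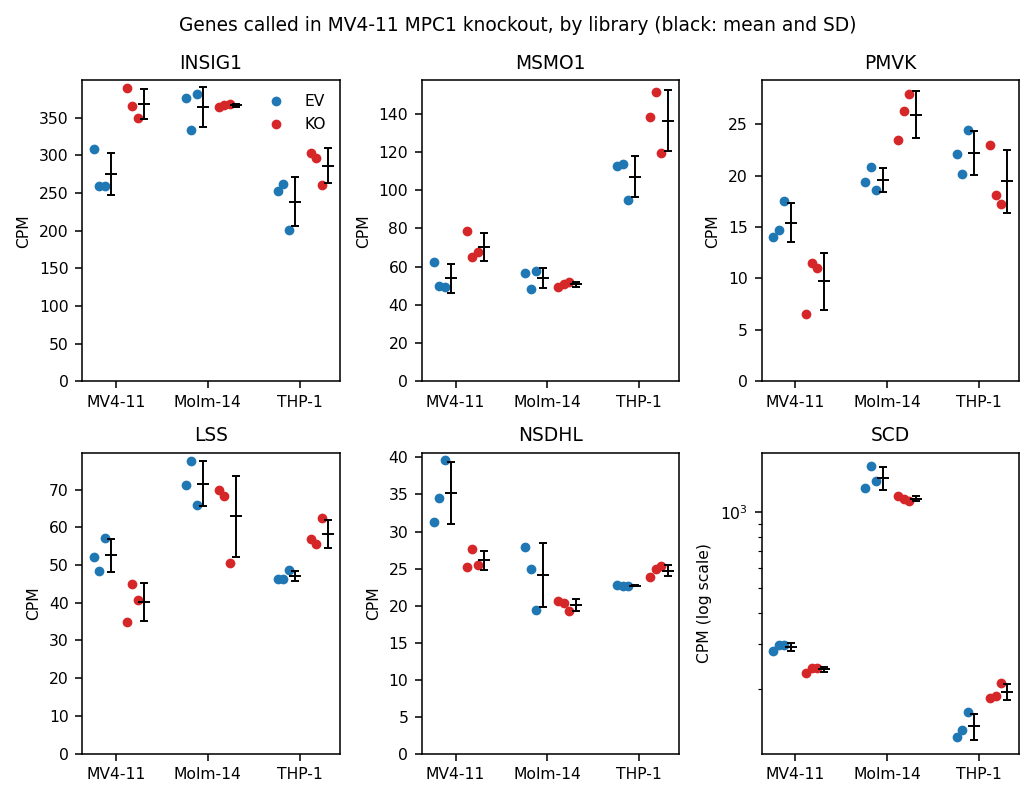
CPM of the 6 genes called in MV4-11 KO, in every library of the knockout series, by cell line (x axis), with EV in blue, KO in red and the mean and SD of 3 libraries in black, and with a log axis for SCD. In MV4-11 INSIG1 and MSMO1 lie higher in KO, while PMVK, LSS, NSDHL and SCD lie lower, and PMVK lies higher in KO in Molm-14.

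In Molm-14 cells 0 of 32 members were called after MPC1 knockout, against 2.4% of all genes (edgeR, 5 members at an unadjusted p under 0.05, and 0 by DESeq2). The median change was -0.04, with 0 for all genes. SCD was the closest to the threshold, at 1244, 1521 and 1336 CPM in EV and at 1157, 1130 and 1106 CPM in KO (-0.27 ± 0.08, edgeR adjusted p = 0.0922), with no overlap. PMVK was at 19.3, 20.8 and 18.6 CPM in EV and at 23.5, 26.3 and 28.0 CPM in KO (0.40 ± 0.15, edgeR adjusted p = 0.231), also without overlap and opposite in sign to MV4-11. SREBF1 was at 101, 119 and 93.0 CPM against 95.1, 92.6 and 66.4 CPM (-0.30 ± 0.12).

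EBP, a sterol isomerase, was at 60.2, 50.5 and 52.2 CPM against 67.1, 67.5 and 59.8 CPM in Molm-14 KO (0.26 ± 0.11). NSDHL was at 27.9, 25.0 and 19.4 CPM against 20.6, 20.4 and 19.2 CPM (-0.26 ± 0.12). FADS2 was at 144, 128 and 137 CPM against 123, 127 and 110 CPM (-0.18 ± 0.09). The adjusted p of these genes ran from 0.255 to 0.495. In the same libraries the myeloid genes MPO and LYZ changed by -1.11 ± 0.10 and 0.96 ± 0.10, both called, and their part in the member levels was not tested. Over all members, 1 lay higher and 3 lower without overlap, against 8.39% and 8% of all genes. Without Molm-14 EV replicate 1, 1 member was called.

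The difference between lines was tested as the knockout change in one line minus that in another. SCD differed between THP-1 and MV4-11 by 0.74 ± 0.12 (log2, edgeR adjusted p = 0.00427) and between THP-1 and Molm-14 by 0.72 ± 0.12 (edgeR adjusted p = 0.00166). FADS2 differed by 0.76 ± 0.13 in both contrasts (edgeR adjusted p = 0.00675 and 0.00229). These were the 2 members called in each contrast, against 0.193% and 0.766% of all genes, and they remained called in every fit that left out 1 library. A replicate block kept both, though the labels give no pairing. It added LSS between THP-1 and MV4-11 (0.69, edgeR adjusted p = 0.0407) and ACAT2 between THP-1 and Molm-14 (0.53, edgeR adjusted p = 0.0131). PMVK differed between Molm-14 and MV4-11 by 1.05 ± 0.23 (edgeR adjusted p = 0.0127), the 1 member called there against 1.48% of genes. Without MV4-11 EV replicate 3 its adjusted p was 0.0584. The contrasts share EV and KO libraries.

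Averaged over the 3 lines, 2 members were called, both higher, against 3.37% of all genes. ACAT2 changed by 0.28 ± 0.06 (edgeR adjusted p = 0.0062) and INSIG1 by 0.23 ± 0.05 (edgeR adjusted p = 0.0139). The 2 genes were called in every fit that left out 1 library. The own change of ACAT2 was 0.30 in MV4-11, 0.01 in Molm-14 and 0.54 in THP-1, and that of INSIG1 was 0.42, 0.01 and 0.26. MSMO1 (0.21 ± 0.06), FDPS (farnesyl diphosphate synthase, 0.14 ± 0.05), FADS1 (0.14 ± 0.04) and EBP (0.19 ± 0.06) had adjusted p from 0.0582 to 0.085. DESeq2 called 5 members. FASN, fatty acid synthase, could not be read closely in this series, since its libraries differed within a group by up to 2.47 times. It was at 76.5, 93.0 and 185 CPM in THP-1 EV and at 69.9, 130 and 173 CPM in THP-1 KO, and the SE of its change was 0.39 to 0.40 in each line.

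In the overexpression series, Molm-14 miR-1 OE cells had higher levels of most members by small amounts. 28 of 32 members were higher in OE (49.9% of all genes were), with a median log2 change of 0.14 against 0 for all genes. In 20 members every OE library lay above every EV library, against 7.8% of all genes, and in 0 members did every OE library lie below, against 7.07%. None of the 32 was called in the fit to all 12 libraries (edgeR, 0 members at an unadjusted p under 0.05 and 0 by DESeq2), against 0.0057% of all genes, which is 1 gene. With 1 spread per gene from both lines, the spread of MV4-11 below enters that test.

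A fit to the 6 Molm-14 libraries alone called 12 of 32 members, all higher, against 1.24% of 15714 genes. SCD rose from 1546, 1455 and 1487 CPM in EV to 1781, 1920 and 1822 CPM in OE (log2 change 0.30, edgeR adjusted p = 1.03e-12, n = 3 against 3, Molm-14 alone). FADS1 rose from 80.0, 74.4 and 77.4 CPM to 101, 116 and 99.5 CPM (0.45, edgeR adjusted p = 1.01e-09, Molm-14 alone). INSIG1 rose from 151, 142 and 144 CPM to 167, 182 and 175 CPM (0.26, edgeR adjusted p = 2.17e-06, Molm-14 alone). FDPS rose from 156, 152 and 141 CPM to 173, 168 and 174 CPM (0.20, edgeR adjusted p = 0.000923, Molm-14 alone). In all 4 the lowest OE library was above the highest EV library, and the 4 were called in all 6 fits that left out 1 more library.

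The other 8 called in Molm-14 alone were FASN, MVK (mevalonate kinase), LSS, SREBF2, STARD4 (a sterol carrier), ACAT2, DHCR7 and FDFT1 (squalene synthase), with changes from 0.13 to 0.31. FASN was at 1211, 1208 and 1219 CPM in EV and at 1339, 1333 and 1298 CPM in OE. The number of members called ranged from 5 to 10 when 1 of the 6 libraries was left out, with 5 without OE replicate 2 and 7 without OE replicate 1. FADS2 had the largest change of the 32, 0.67, and was at 141, 118 and 113 CPM in EV and at 186, 217 and 188 CPM in OE, but was not called in either fit (edgeR adjusted p = 0.149 in Molm-14 alone).

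EBP was at 14.3, 14.1 and 14.3 CPM in EV and at 15.3, 18.1 and 17.2 CPM in OE (0.24 ± 0.14 in the shared fit), without overlap. TM7SF2 was at 5.55, 5.08 and 6.90 CPM against 6.95, 9.12 and 5.72 CPM, and MVK was at 31.0, 31.7 and 28.7 CPM against 36.4, 40.4 and 36.4 CPM. NSDHL was one of 4 members lower in OE (17.5, 18.9 and 18.1 against 15.9, 19.0 and 14.4 CPM), with SCAP, ELOVL6 and HSD17B7. In the same libraries the 13 genes of the mitochondrial genome summed to 28850 to 32030 CPM in EV and 35440 to 38540 CPM in OE, without overlap, and the part of this in the member changes was not tested.

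**Figure D4:**
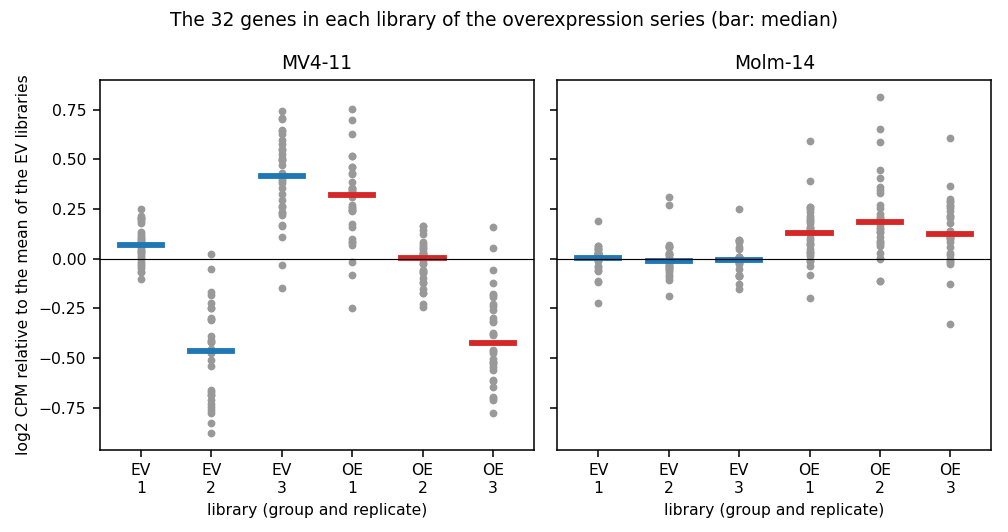
Level of each of the 32 genes (grey points) in each library of the overexpression series, as log2 CPM relative to the mean of the EV libraries of the same line, for MV4-11 (left) and Molm-14 (right), with the median of the genes as a bar, blue for EV and red for OE. In MV4-11 the libraries differ within both groups, EV replicate 3 and OE replicate 1 lying high, while in Molm-14 the OE medians lie above the EV medians.

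In MV4-11 cells the members differed between libraries of one group by more than between OE and EV. None of the 32 was called, against 0.177% of all genes (edgeR, 0 members at an unadjusted p under 0.05 and 0 by DESeq2), and the median change was -0.07, with 0.00693 for all genes. The sign of that median changed with single libraries. It was 0.164 with 29 of 32 members positive without EV replicate 3, and 0.101 with 28 positive without OE replicate 3. Without EV replicate 2 it was -0.253, and without OE replicate 1 it was -0.27. In 0 members did the groups fail to overlap in either direction, against 5.06% of all genes higher and 4.11% lower. Among members above 8 CPM, the highest library of a group exceeded the lowest by a median of 1.64 times in OE and 1.85 times in EV, against 1.15 and 1.13 times for all genes above 8 CPM. In Molm-14 the same medians were 1.08 in OE and 1.06 in EV for the members.

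The spread was shared by the genes. EV replicate 3 was the highest of the 6 MV4-11 libraries for 26 of 32 members, against 16.6% of all genes. EV replicate 2 was the lowest for 20 members and OE replicate 3 for 10, against 18.2% and 14.9% of all genes. HMGCS1, which makes the precursor of mevalonate, was at 132, 75.3 and 216 CPM in EV replicates 1, 2 and 3 and at 199, 119 and 78.8 CPM in OE replicates 1, 2 and 3. INSIG1 was at 360, 200 and 527 CPM in EV and at 481, 321 and 215 CPM in OE. DHCR7 was at 69.3, 35.9 and 104 CPM in EV and at 103, 69.4 and 43.7 CPM in OE, so that each of the 3 genes had high and low libraries in both groups.

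SCAP, the escort of SREBP, was at 104, 105 and 101 CPM in MV4-11 EV and at 97.5, 106 and 107 CPM in OE. The interferon-stimulated genes were at a summed 831 CPM in OE replicate 1 and 261 CPM in EV replicate 3, against 147 to 152 CPM in the other 4 MV4-11 libraries, and the cell cycle genes were at 4507 CPM in OE replicate 1 and 4665 CPM in EV replicate 3, against 5178 to 5475 CPM in the other 4. In the same 2 libraries LYZ was at 537.8 and 527.9 CPM, against 861.5 to 1246 CPM in the other 4. PTPRC was at 145.9 and 136.5 CPM, against 87.64 to 115.7 CPM. Mitochondrial genome transcripts summed to 25820 and 33160 CPM, against 33960 to 43930 CPM. The 2 libraries with high sterol genes thus differed from the other 4 in several gene sets, among them interferon (high) and cell cycle (low). The part of any of these in the member levels was not tested. The 6 members of lowest unadjusted p, NSDHL, ELOVL5, ACACA, ACAT2, FDPS and CYP51A1, had log2 differences of -0.10 ± 0.10, 0.10 ± 0.10, -0.10 ± 0.14, -0.15 ± 0.22, -0.11 ± 0.18 and -0.18 ± 0.32.

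The difference of the OE change between Molm-14 and MV4-11 was positive for 26 of 32 members, with a median of 0.21 against -0.00773 for all genes. Single MV4-11 libraries set this count and median. Without MV4-11 EV replicate 3, 15 of 32 were positive with a median of -0.00795, without OE replicate 3 the median was 0.0621, and without EV replicate 2 or OE replicate 1 it was 0.392 or 0.407. None was called, against 0.0456% of all genes (edgeR, 0 at an unadjusted p under 0.05, and 0 by DESeq2), and the largest, in FADS2, was 0.81 ± 0.51.

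The lines themselves differed in most members, as they did in most genes. In the EV libraries of the overexpression series, 18 of 32 members were called between Molm-14 and MV4-11, 2 higher and 16 lower in Molm-14, against 64.8% of all genes. In the EV libraries of the knockout series 24 of 32 were called, 15 higher and 9 lower, against 61.7% of all genes. The median log2 difference was -0.56 in the first series and 0.37 in the other. In the overexpression series it was -0.299, with 11 members positive in place of 6, without MV4-11 EV replicate 3, and -0.794 without EV replicate 2. The 2 series differ in the vector constructs, in depth and in the number of genes listed, and were normalised separately. Mitochondrial genome transcripts in MV4-11 EV summed to 33160 to 41160 CPM in the overexpression series and 2027 to 3724 CPM in the knockout series. FASN was at 202 and 11.6 CPM per kilobase of exon in MV4-11 EV, and at 130 and 20.0 in Molm-14 EV. The part of these in the line differences was not tested.

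**Figure D5:**
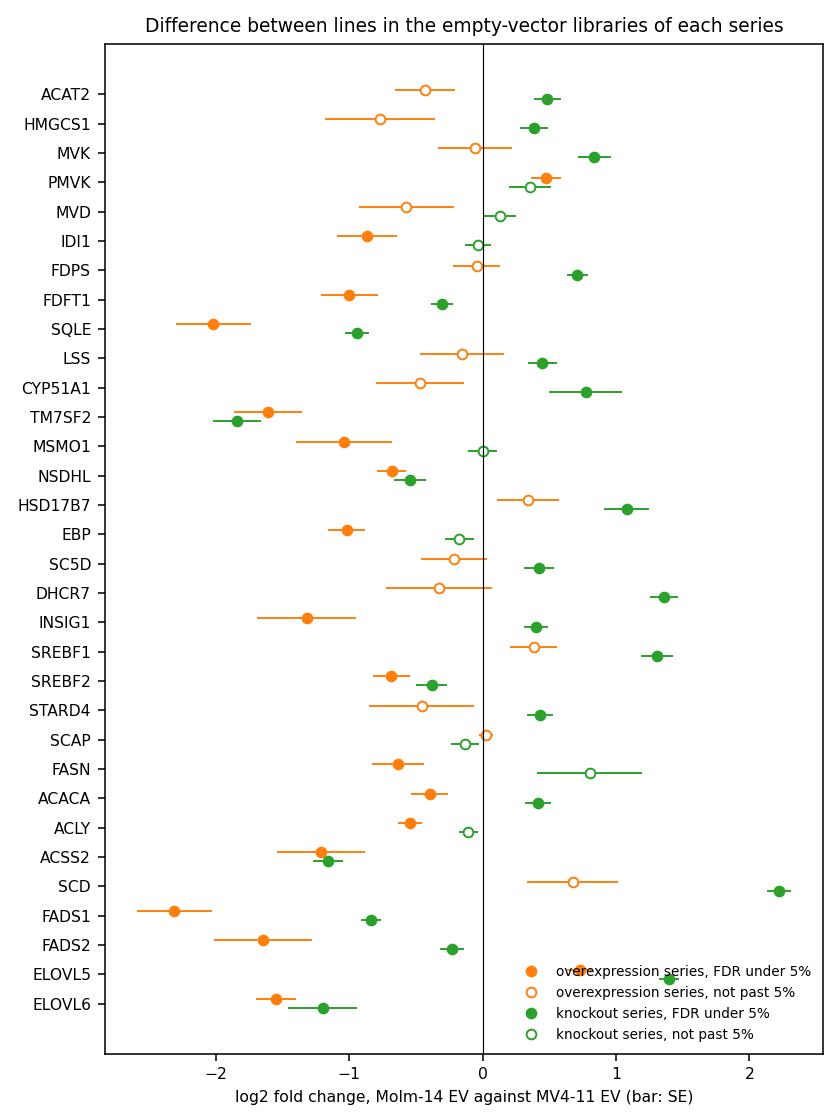
Log2 fold change of each of the 32 genes (rows) between Molm-14 EV and MV4-11 EV, with its SE, in the overexpression series (orange) and the knockout series (green), filled where the edgeR adjusted p is under 5%. FADS1, SQLE, TM7SF2 and ELOVL6 lie left of 0 in both series, ELOVL5 lies right of 0 in both, and INSIG1 and ACACA lie on opposite sides.

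Members called in both series in the same direction numbered 10, ELOVL5 higher in Molm-14 and FDFT1, SQLE, ACSS2, FADS2, NSDHL, FADS1, TM7SF2, ELOVL6 and SREBF2 lower. Over all genes, 64.8% and 61.7% were called in the 2 series, and the share called alike in both is not given here. SQLE, squalene epoxidase, differed by -2.02 ± 0.28 in the overexpression series (log2, Molm-14 against MV4-11, edgeR adjusted p = 0.000215) and by -0.94 ± 0.09 in the knockout series (edgeR adjusted p = 7.68e-10). FADS1 differed by -2.31 ± 0.28 and -0.83 ± 0.08, and ELOVL6, an elongase of saturated fatty acids, by -1.55 ± 0.15 and -1.20 ± 0.26. The sign of the difference was opposite between the series in 14 of 32 members, and the share over all genes is not given here. Of these 14, INSIG1 and ACACA (acetyl-CoA carboxylase) were called in both series. INSIG1 differed by -1.32 ± 0.37 in the overexpression series and by 0.40 ± 0.09 in the knockout series. Without MV4-11 EV replicate 3, the library with the highest sterol genes, its edgeR adjusted p in the overexpression series was 0.0475, and with a replicate block it was 0.109. ACACA differed by -0.40 ± 0.14 and 0.41 ± 0.10, and lost its call in the overexpression series in 4 of the 6 fits without 1 library (without MV4-11 EV replicate 1 or 3 and without Molm-14 EV replicate 2 or 3), with adjusted p up to 0.0979. It was also lost with no filter on low counts and with only the compared libraries. FADS2 lost its call in the knockout series without MV4-11 EV replicate 1 (adjusted p = 0.125) and in 2 other such fits.

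SCD differed widely between lines in the knockout series. It was at 281, 298 and 299 CPM in MV4-11 EV, at 1244, 1521 and 1336 CPM in Molm-14 EV and at 128, 137 and 161 CPM in THP-1 EV. The log2 difference was 2.22 ± 0.09 between Molm-14 and MV4-11 and -3.27 ± 0.09 between THP-1 and Molm-14, with no overlap between any of the 3 groups. Per kilobase of exon, SCD ranked 1st of 32 in Molm-14 EV of both series (285 and 261 CPM per kilobase), and ACLY, ATP citrate lyase, which returns citrate carbon to acetyl-CoA, ranked 1st in MV4-11 and THP-1 EV of the knockout series (77.3 and 96.2 CPM per kilobase).

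Between THP-1 and MV4-11 EV, 25 of 32 members passed the threshold, with 15 higher in THP-1 and 10 lower, against 67.5% of all genes. Between THP-1 and Molm-14 EV, 22 of 32 were called, 11 in each direction, against 69.6% of all genes. Higher in THP-1 than in both other lines were HMGCS1, FDFT1, SQLE, MSMO1, EBP, SC5D, STARD4 and ACLY. Against MV4-11, EBP lost its call in 3 of 6 fits without 1 library (edgeR adjusted p up to 0.164). With only the compared libraries its edgeR adjusted p was 0.054. SC5D, a sterol desaturase, had means of 27.9 ± 1.93 CPM (SD, n = 3) in MV4-11 EV and 37.2 ± 3.03 CPM in Molm-14 EV, and was at 94.6, 101 and 86.8 CPM in THP-1 EV. STARD4 had means of 40.8 ± 0.741, 55.1 ± 4.80 and 122 ± 3.70 CPM in MV4-11, Molm-14 and THP-1 EV.

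Lower in THP-1 than in both other lines were ELOVL6, SCD, FADS2, SREBF1, IDI1 and INSIG1. INSIG1 between THP-1 and MV4-11 had an adjusted p just under the threshold (-0.21 ± 0.09, edgeR adjusted p = 0.049), and lost the call without THP-1 EV replicate 3 (adjusted p = 0.335) or MV4-11 EV replicate 1 (0.273). It also lost the call in all 5 other settings, with adjusted p from 0.056 (edgeR, replicate block) to 0.181 (DESeq2). ELOVL6 was nearly absent in THP-1, with 0, 0 and 2 counts in the EV libraries and 0, 1 and 1 in KO, against 56, 99 and 70 counts in MV4-11 EV and 36, 40 and 22 in Molm-14 EV. The summed counts, scaled for depth, were 98.5 times lower in THP-1 than in MV4-11 EV (95% exact interval for counting error 27.0 to 818) and 43.1 times lower than in Molm-14 EV (11.6 to 361). SREBF1 was at 45.4, 38.2 and 42.4 CPM in MV4-11 EV, at 101, 119 and 93.0 CPM in Molm-14 EV and at 22.6, 21.7 and 25.2 CPM in THP-1 EV.

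Genes around the pathway were called mainly in MV4-11 KO, where 5.41% of all genes were called, against 2.4% in Molm-14 KO. Of 12 genes that process SREBP or sense sterols, 0 were called in the OE comparisons and in THP-1 KO, 2 fell in MV4-11 KO (ERLIN1, a cholesterol-binding protein of the endoplasmic reticulum, -0.36 ± 0.07, and MBTPS1, the SREBP protease, -0.31 ± 0.09) and 2 in Molm-14 KO (SEC23A, -0.41 ± 0.09, and SEC24D, -0.38 ± 0.09, both coat proteins of vesicles leaving the endoplasmic reticulum). Of 13 tested genes of cholesterol uptake, transport and storage, 0 were called in any single comparison of treated against EV, and TMEM97 rose by 0.25 ± 0.05 averaged over the 3 knockout lines. LXR targets had 0 calls by edgeR in the 5 comparisons of treated against EV, of 7 genes tested with OE and 6 with KO, and 1 call in the difference of the knockout change between THP-1 and Molm-14. Across the 6 lists, from 0 to 3 genes a list had an unadjusted p under 0.05 in the OE comparisons and from 0 to 2 in THP-1 KO. In MV4-11 KO, where 3236 of all 14490 genes had one, chain elongation had 7, SREBP processing and uptake had 5 each, triglyceride assembly had 4, the isoprenoid branches had 3 and LXR targets had 0.

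Of 12 genes of the isoprenoid branches, NUS1, a subunit of the enzyme for dolichol, fell in MV4-11 KO (-0.72 ± 0.17). Of 22 tested genes of chain elongation and other fatty acid steps, TECR, the reductase of elongation, fell in MV4-11 KO from 32.3, 50.6 and 51.4 CPM to 24.2, 30.8 and 31.2 CPM (-0.63 ± 0.14). ME1, the malic enzyme that supplies reducing power for synthesis, had 4, 6 and 2 counts in MV4-11 EV and 0 in each MV4-11 KO library. Its levels in Molm-14 were 12.1, 17.1 and 16.4 CPM in EV and 13.7, 13.7 and 14.5 CPM in KO. Of 12 genes of triglyceride and phospholipid assembly, PLIN2, which coats lipid droplets, rose in MV4-11 KO from 23.2, 21.0 and 23.4 CPM to 35.3, 36.5 and 33.8 CPM (0.64 ± 0.11), with LPIN1 also higher (0.33 ± 0.09) and CHKA lower (-0.42 ± 0.09).

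A few levels carry counting limits. CYP51A1 shares 68.2% of its exon length with another annotated gene on the same strand and EBP shares 36.4%, so reads assigned to them may be too few. HMGCS1 shares 37.7% with a gene on the opposite strand, and whether counting used the strand was not given in the sources used here. The authors counted with an Ensembl annotation of another release, and whether it holds these overlaps was not checked. CYP51A1, ELOVL6, HSD17B7 and TM7SF2 had group means of at most 17.9 CPM.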

How the data were processed

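RNA-seq counts per gene were analysed from 30 libraries, 12 of the overexpression series and 18 of the knockout series. The authors deposited raw read counts per gene, made from paired reads on GRCh38 with STAR 2.7.6a in two-pass mode and featureCounts 1.6.3 (cutadapt 1.16 for trimming, per the submitters' processing notes), after removal of optical duplicates. The library kit was stranded with ribosomal depletion. The deposited counts were used unchanged, and no column of values was left unmapped. Genes were named from the tables or from GENCODE release 44. Counts were filtered with filterByExpr, scaled by TMM and tested with edgeR 4.0.16 (R 4.3.3, quasi-likelihood, robust) with 1 mean per group, all libraries of a series in 1 model, and Benjamini-Hochberg adjustment over all genes at 5%. SE is the log2 change divided by the square root of F. The members and all gene lists were chosen with earlier results of these data known. All members were to be described, those called in a treated comparison with every library, the lowest unadjusted p filling up to 6. The method was tested on simulated data with known changes. Alternatives were DESeq2 1.42.0, RLE factors, no filter, only the libraries compared, a replicate block and each library left out, and, chosen after seeing the data, each library left out of the Molm-14 overexpression fit alone. Correlations of same-numbered EV and treated libraries were all positive only in THP-1 (0.385, 0.301 and 0.619), but EV replicate 2 with KO replicate 1 was at 0.39. This does not settle whether the numbers pair libraries, and the labels give no pairing. Replicate pairs differed by 1.5 to 15.8 times the sampling variance, so none was a copy of the same counts. This does not show that cultures were separate. Promoters were read from RefSeq. The counts give no depth of molecules, since reads without identifiers are not independent, and intervals cover counting error only.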

Additional observations from a re-analysis of the deposited data

Results flagged for a closer look

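The knockout change of 3 genes differed between lines by the test of the difference itself. SCD rose in THP-1 KO (0.45) and fell in MV4-11 KO (-0.30), with a difference of 0.743 ± 0.123 on the log2 scale (edgeR adjusted p = 0.00427), and in Molm-14, where its change was -0.27, the difference from THP-1 was 0.721 ± 0.121 (edgeR adjusted p = 0.00166). FADS2 rose in THP-1 KO (0.58) and was at -0.18 in MV4-11 and in Molm-14, with differences of 0.757 ± 0.131 (edgeR adjusted p = 0.00675) and 0.756 ± 0.132 (edgeR adjusted p = 0.00229). PMVK fell in MV4-11 KO (-0.65) and was at 0.40 in Molm-14 KO, a difference of 1.05 ± 0.226 (edgeR adjusted p = 0.0127).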

How the results depend on the processing

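The counts of members called were compared across alternatives. The share of all genes called is given only for Molm-14 OE fitted alone (1.24%) and for THP-1 KO with the replicate block (0.11%). The other counts of alternative fits therefore cannot be set against all genes. Fitting only the libraries compared gave 12 members in Molm-14 OE in place of 0, 2 in MV4-11 KO in place of 6, and 0 in THP-1 KO in place of 4, and such a fit has fewer samples behind each spread. The replicate block gave 10 in MV4-11 KO, 1 (SCD) in Molm-14 KO, 5 in the mean of the 3 lines, 3 in Molm-14 minus MV4-11, and 3 in THP-1 KO. The labels give no pairing for the block, which added LSS to THP-1 minus MV4-11 and ACAT2 to THP-1 minus Molm-14, giving 3 in each. DESeq2 gave 5 in the mean of the 3 lines in place of 2, and the cause was not tested. Leaving out 1 library gave 0 to 8 in MV4-11 KO, 0 to 1 in Molm-14 KO, 0 to 2 in THP-1 KO, 2 to 6 in the mean of the 3 lines, 0 to 3 in Molm-14 minus MV4-11 and 5 to 10 in Molm-14 OE fitted alone. The 6 in the mean came without MV4-11 EV replicate 1, and 5 without THP-1 KO replicate 3. No member past the threshold in either fit changed sign under any alternative run. SCD was lost in 5 of the 6 fits without 1 library in MV4-11 KO (-0.30 in all libraries) and in 5 of 6 in THP-1 KO (0.45), and the 1 call in Molm-14 KO came without EV replicate 1. Depth limits ELOVL6 in THP-1, where no library exceeded 2 counts.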
